A study of Mus musculus with 8 samples.

Results

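The 50 genes described here encode RNA polymerase I, its factors and the nucleolar proteins that turn its transcript into ribosomal subunits. They were chosen by symbol, with earlier results of these data known, and all 50 were found among the 24420 symbols of the total RNA table. The polysomal table, which has 5804 symbols, held 23 of them. The data are RNA-seq read counts from the brain (neural tube, per the growth protocol) of mouse embryos at E11.5. Embryos of the double knockout (dKO) group carried the genotype Lin28a-/-;b-/-, and the others were wildtype (WT). No further allele, strain or driver is given in the labels, and no treatment is named. Each genotype was sequenced as total RNA and as polysomal RNA, which is RNA bound by several ribosomes at once, with 2 replicates in each of the 4 groups. The labels do not say whether replicates came from separate embryos, and the p-values therefore reflect the scatter among these libraries alone, part or all of which may be technical.

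Ribosomes are built in the nucleolus. RNA polymerase I (Pol I) transcribes a long ribosomal RNA precursor, small nucleolar RNA particles of the box C/D and H/ACA kinds methylate it and convert uridines in it to pseudouridine, and assembly factors fold and cut it into the small and the large subunit. Dividing progenitor cells of the embryonic brain need a steady supply of new ribosomes, and many of these genes are known targets of the transcription factor Myc. Lin28a and Lin28b are RNA-binding proteins that block maturation of let-7 microRNAs. The series title names protein synthesis and the maintenance of neural progenitors as its subject, and the comparison here asks how transcripts of the ribosome-building machinery differ between dKO and WT tissue.

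Total RNA libraries held 15612883 to 15768767 counts in dKO and 15060560 to 15650360 in WT. The polysomal columns summed to 3740980 and 5164982 counts in dKO and to 14874143 and 15414712 in WT over the listed genes, which is not the depth of those libraries. Both targeted genes were lower in dKO total RNA, with log2 fold changes of -3.35 ± 0.12 for Lin28a and -1.28 ± 0.07 for Lin28b (± SE, as for all later fold changes). Counts of the 2 dKO polysomal replicates differed far more than sampling noise allows (chi-square of 24.97 per degree of freedom, against 2.90 to 3.23 in the other 3 groups, also above sampling noise). The single row Rn45s (45S rRNA precursor), with 356079 and 236798 counts, made up a large part of the 24.97. Of 13 neural progenitor and neuron markers all were measured, with sums of 6434 and 6464 CPM (counts scaled to a common library size) in dKO and 6840 and 6888 in WT. Among these 13, 5 fell and 2 rose, with log2 fold changes from -0.90 to 0.24. Markers of other cells were also present. The summed levels were 2697 to 2701 CPM in dKO and 4417 to 4483 CPM in WT for 9 measured erythroid markers, of which 8 fell. For 11 mesenchyme and somite markers they were 474 to 483 CPM in dKO and 539 to 565 CPM in WT, and 4 fell. For 8 endothelial markers they were 170 to 177 CPM in dKO and 168 to 170 CPM in WT, and for 7 macrophage markers 39.7 to 50.1 CPM in dKO and 43.6 to 48.8 CPM in WT. The adult globin genes Hba-a1, Hba-a2, Hbb-bt and Hbb-bs are listed at 0 in every total RNA library. The part of these differences in the results was not tested. In bulk tissue, fewer cells of a type and less RNA per cell cannot be told apart.

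In total RNA the ribosome-building genes were lower in dKO as a group, by a modest amount. Of the 50 genes, 33 fell and none rose (edgeR quasi-likelihood test, adjusted p under 0.05), against 16.0% of all 14594 genes tested that fell and 14.7% that rose (30.7% in either direction). At an unadjusted p under 0.05 none of the 50 was higher either, and DESeq2 also called 0 higher. The median log2 fold change was -0.33 over the 50 genes and 0.00 over all genes tested. All 50 passed the filter on low counts. In 41 genes both dKO libraries lay below both WT libraries, while 31.2% of all genes tested had that order. In 1 gene both dKO libraries lay above both WT libraries, as in 31.0% of all genes tested, and in 8 genes the libraries overlapped. Among the genes that fell, the decrease ran from 7.23% to 39.4% with a median of 23.9%, and 10 of the 33 fell by at least 0.5 on the log2 scale. The summed level of the 50 genes was 2282 and 2312 CPM in dKO and 2809 and 2787 CPM in WT.

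**Figure D1:**
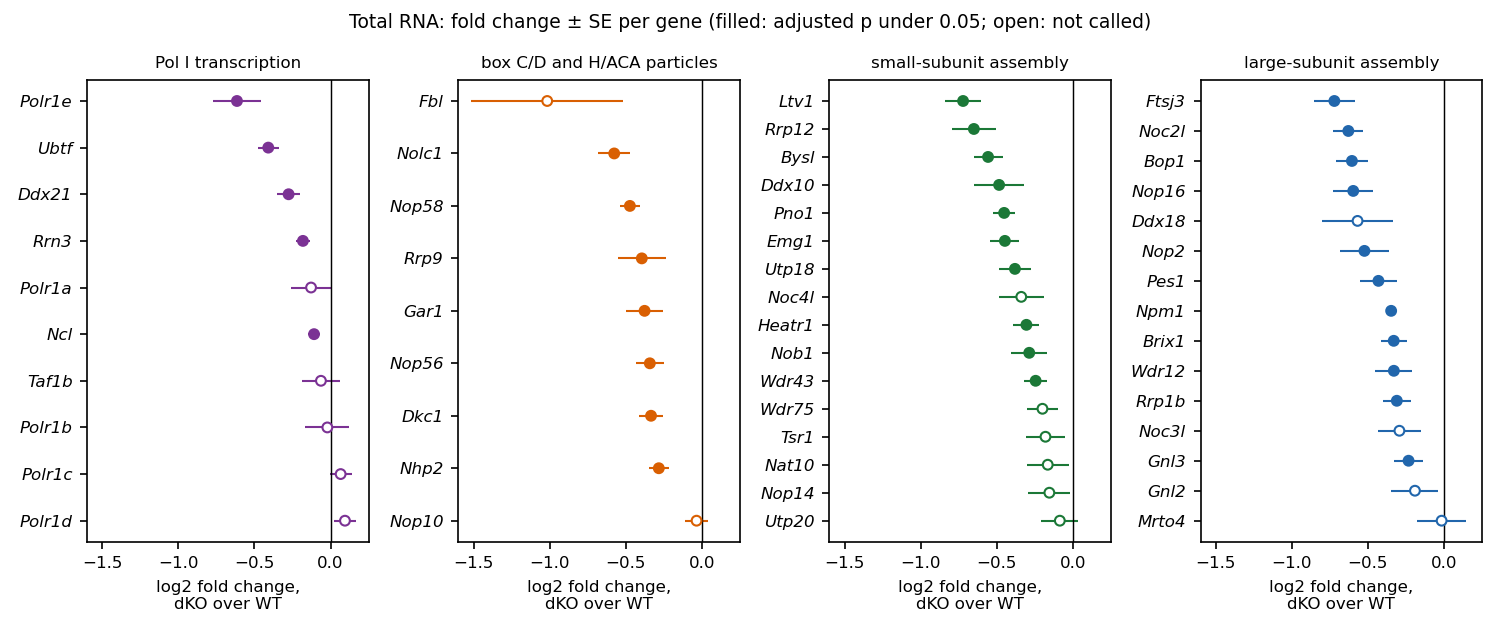
Log2 fold change in total RNA (dKO over WT, horizontal axis) of each of the 50 genes, in 4 panels by role; points are estimates from 2 libraries per genotype, bars are ± SE, and filled points passed an adjusted p of 0.05. Of the 50 estimates 48 lie left of 0, and the 5 Pol I genes with open points are close to it.

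The Pol I group showed the smallest shift, with 5 of 10 genes lower, a median log2 fold change of -0.12 and estimates on both sides of 0. Polr1e, a subunit that takes part in initiation and elongation, had 165 and 193 counts in dKO and 264 and 277 counts in WT. Its level was 10.5 and 12.4 CPM in dKO and 16.8 and 18.3 CPM in WT, and it fell by 34.7% (log2 fold change -0.62 ± 0.16, adjusted p = 5.51e-04). The 2 genotypes did not overlap. Ubtf, which binds along ribosomal DNA and keeps it open for Pol I, had 1140 and 1164 counts in dKO and 1582 and 1438 counts in WT, a log2 fold change of -0.41 ± 0.07. Ddx21, an RNA helicase of the nucleolus that acts in Pol I transcription and in rRNA processing, had 935 and 890 counts in dKO and 1101 and 1078 in WT (-0.28 ± 0.08). Every dKO library was below every WT library for both genes.

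Rrn3, which links Pol I to its promoter and is the target of growth signals, had 3098 and 3233 counts in dKO and 3618 and 3466 counts in WT (-0.18 ± 0.04). Ncl (nucleolin), a nucleolar protein of early rRNA processing, was at 268 ± 6.12 CPM in dKO and 289 ± 9.93 CPM in WT (mean ± SD, n = 2 each, as for all later levels given with ±). Its counts were 4150 and 4233 in dKO and 4433 and 4479 in WT, a difference of 7.23% that passed the test (adjusted p = 0.0226). That call was lost without dKO replicate 1 (-0.09, adjusted p = 0.225) and without WT replicate 2 (-0.07, adjusted p = 0.272).

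The core subunits of the enzyme did not pass. Polr1a, the largest and catalytic subunit, had 323 and 319 counts in dKO and 392 and 301 in WT (-0.13 ± 0.13), and Polr1b, the second large subunit, had 267 and 249 counts in dKO and 290 and 227 in WT (-0.02 ± 0.15). Taf1b, a subunit of the promoter factor SL1, had 349 and 351 counts in dKO and 351 and 370 in WT (-0.06 ± 0.13). In these 3 genes the genotypes overlapped. Polr1c and Polr1d, which Pol I shares with Pol III, had the highest estimates of the 50 genes, at 0.07 ± 0.07 and 0.10 ± 0.07. Polr1d had 1234 and 1245 counts in dKO and 1102 and 1186 counts in WT. It was the only 1 of the 50 genes with both dKO libraries above both WT libraries, and was not called (adjusted p = 0.331).

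The proteins of the small nucleolar RNA particles fell in 7 of 9 genes, with a median of -0.38. Nolc1, a chaperone of these particles also known as Nopp140, had 437 and 431 counts in dKO and 654 and 622 in WT. Its level of 27.8 ± 0.0273 CPM in dKO and 41.4 ± 0.350 CPM in WT gave a log2 fold change of -0.58 ± 0.11 (adjusted p = 7.56e-07). Nop58, a core protein of box C/D particles, had 1295 and 1235 counts in dKO and 1733 and 1728 in WT (-0.47 ± 0.06, adjusted p = 7.95e-12). The libraries of the 2 genotypes stood clearly apart in both genes.

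Nop56, the partner of Nop58, had 675 and 648 counts in dKO and 881 and 773 counts in WT (-0.34 ± 0.09), and Rrp9, a protein of the U3 particle, had 206 and 177 counts in dKO and 239 and 257 in WT (-0.39 ± 0.16). Fibrillarin (Fbl), the methyltransferase of box C/D particles, had the lowest estimate of the 50 genes, -1.02 ± 0.50, but rested on only 18 and 16 counts in dKO and 32 and 36 counts in WT and was not called (adjusted p = 0.113). Its level of 0.525 CPM per kilobase of exon in WT was the lowest of all 50 genes. Why so abundant a nucleolar protein had so few counts was not tested.

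Among the 4 core proteins of H/ACA particles, Dkc1, the pseudouridine synthase, was at -0.33 ± 0.08, Gar1 at -0.38 ± 0.12 and Nhp2 at -0.28 ± 0.07. Nhp2 had 1274 and 1293 counts in dKO and 1614 and 1466 in WT. The fourth, Nop10, had 1068 and 1064 counts in dKO and 1064 and 1088 in WT, a log2 fold change of -0.03 ± 0.07 (adjusted p = 0.790), with overlapping libraries. Of these calls, that of Nop56 was lost without WT replicate 1 (-0.28, adjusted p = 0.0636). That of Gar1 was lost without dKO replicate 1 (-0.32, adjusted p = 0.108) or WT replicate 1 (-0.36, adjusted p = 0.0606). Rrp9 kept its call only without WT replicate 1, and the values without the other libraries were -0.50 (dKO replicate 1), -0.30 (dKO replicate 2) and -0.31 (WT replicate 2), with adjusted p = 0.0581, 0.300 and 0.232.

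Small-subunit factors fell in 10 of 16 genes, with a median of -0.32 and all 16 estimates below 0. Ltv1, which helps the small subunit leave the nucleus and mature in the cytoplasm, showed the largest decrease among genes that passed the test. Its counts were 330 and 333 in dKO and 551 and 528 in WT, and its level was 21.2 ± 0.323 CPM in dKO and 35.0 ± 0.110 CPM in WT, 39.4% lower (-0.72 ± 0.12, adjusted p = 9.13e-09). Replicates of each genotype were nearly equal. Rrp12, a factor of subunit export, had 167 and 235 counts in dKO and 311 and 312 in WT (-0.65 ± 0.15). Its dKO replicates were further apart, and without dKO replicate 1 the value was -0.42 and not called (adjusted p = 0.0771). Bysl (bystin), needed for the late cuts of 18S rRNA, had 487 and 610 counts in dKO and 794 and 799 in WT (-0.56 ± 0.10).

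Pno1 and Nob1 act together at the last cut that yields 18S rRNA, made by the nuclease Nob1. Pno1 was at -0.45 ± 0.07 and Nob1 at -0.29 ± 0.12, with adjusted p = 2.53e-08 and 0.0486. The Nob1 call was lost whichever library was left out (values from -0.30 to -0.28, adjusted p from 0.117 to 0.167) and under a block for replicate number (-0.29, adjusted p = 0.0571). Emg1, a methyltransferase of 18S rRNA, was at -0.45 ± 0.10, the helicase gene Ddx10 at -0.48 ± 0.16 and the processome gene Utp18 at -0.38 ± 0.10. Ddx10 was not called without dKO replicate 2 (-0.41, adjusted p = 0.144) or WT replicate 1 (-0.45, adjusted p = 0.0745).

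Of the small-subunit factors that also act in Pol I transcription, Heatr1 was at -0.31 ± 0.09, Wdr43 at -0.24 ± 0.07 and Wdr75 at -0.20 ± 0.10. Wdr43 had 988 and 983 counts in dKO and 1145 and 1158 in WT. Wdr75 was not called (adjusted p = 0.115). Heatr1 lost its call without dKO replicate 1 (-0.26, adjusted p = 0.0630) and Wdr43 without WT replicate 2 (-0.21, adjusted p = 0.0873). The remaining small-subunit genes, Noc4l, Tsr1, Nat10, Nop14 and Utp20, were between -0.34 and -0.09 and not called. Noc4l (-0.34 ± 0.15) was called without WT replicate 1 (-0.52, adjusted p = 0.0121). Utp20, a scaffold of the processome, had 342 and 407 counts in dKO and 389 and 395 in WT, and Nop14 had 270 and 277 in dKO and 324 and 277 in WT.

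Large-subunit factors fell in 11 of 15 genes, with a median of -0.35. Ftsj3, a methyltransferase of the rRNA precursor, had 243 and 214 counts in dKO and 412 and 332 in WT, 14.6 ± 1.18 CPM in dKO and 24.1 ± 3.02 CPM in WT (-0.72 ± 0.14, adjusted p = 1.86e-06). Noc2l had 543 and 469 counts in dKO and 798 and 746 in WT (-0.63 ± 0.10). In both genes the higher dKO library stayed well under the lower WT library. Bop1, Pes1 and Wdr12 form a complex needed for the 28S and 5.8S rRNA. Bop1 had 409 and 430 counts in dKO and 620 and 639 counts in WT (-0.61 ± 0.11), while Pes1 was at -0.43 ± 0.12 and Wdr12 at -0.33 ± 0.12. Thus all 3 subunits fell, but Pes1 was not called without dKO replicate 1 (-0.32, adjusted p = 0.104) or WT replicate 1 (-0.36, adjusted p = 0.0588). The Wdr12 call was lost whichever library was left out (values from -0.37 to -0.30, adjusted p from 0.0673 to 0.151).

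Npm1 (nucleophosmin), a histone and ribosome chaperone, had the highest level of the 50 genes, 106 CPM per kilobase of exon in dKO and 135 in WT. Its counts were 4527 and 4282 in dKO and 5901 and 5163 in WT, a decrease of 21.4% (-0.35 ± 0.04, adjusted p = 3.58e-19). Npm1 has processed pseudogenes, so its counts are uncertain where reads were shared among copies. Nop16 (-0.60 ± 0.13), the rRNA methyltransferase gene Nop2 (-0.52 ± 0.16), Brix1 (-0.33 ± 0.09), Rrp1b (-0.31 ± 0.09) and the nucleolar GTPase gene Gnl3 (-0.23 ± 0.09) fell as well. Of these, Nop2 was not called without dKO replicate 2 (-0.37, adjusted p = 0.185) or WT replicate 1 (-0.41, adjusted p = 0.110), Brix1 without dKO replicate 1 (-0.23, adjusted p = 0.107) and Rrp1b without WT replicate 2 (-0.28, adjusted p = 0.0607). The Gnl3 call was lost whichever library was left out (values from -0.29 to -0.18, adjusted p from 0.0601 to 0.274).

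Ddx18, a helicase with 89 and 72 counts in dKO and 138 and 98 counts in WT, was at -0.57 ± 0.24 and just missed the threshold (adjusted p = 0.0516). It was called without WT replicate 2 (-0.77, adjusted p = 0.0200). Noc3l (-0.29 ± 0.14), the GTPase gene Gnl2 (207 and 218 counts in dKO, 258 and 221 in WT) and Mrto4, a placeholder for the stalk protein P0 (213 and 214 counts in dKO, 226 and 200 in WT), were not called. The genotypes overlapped for Mrto4 (-0.02 ± 0.16). The 17 genes without a call rested on fewer reads than the 33 that fell, with median values of 18.9 against 43.4 CPM not corrected for length, and had a wider median SE, 0.14 against 0.10. Their median log2 fold change was also smaller, -0.15 against -0.39, and some had many reads, up to the 76.9 CPM of Polr1d.

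**Figure D2:**
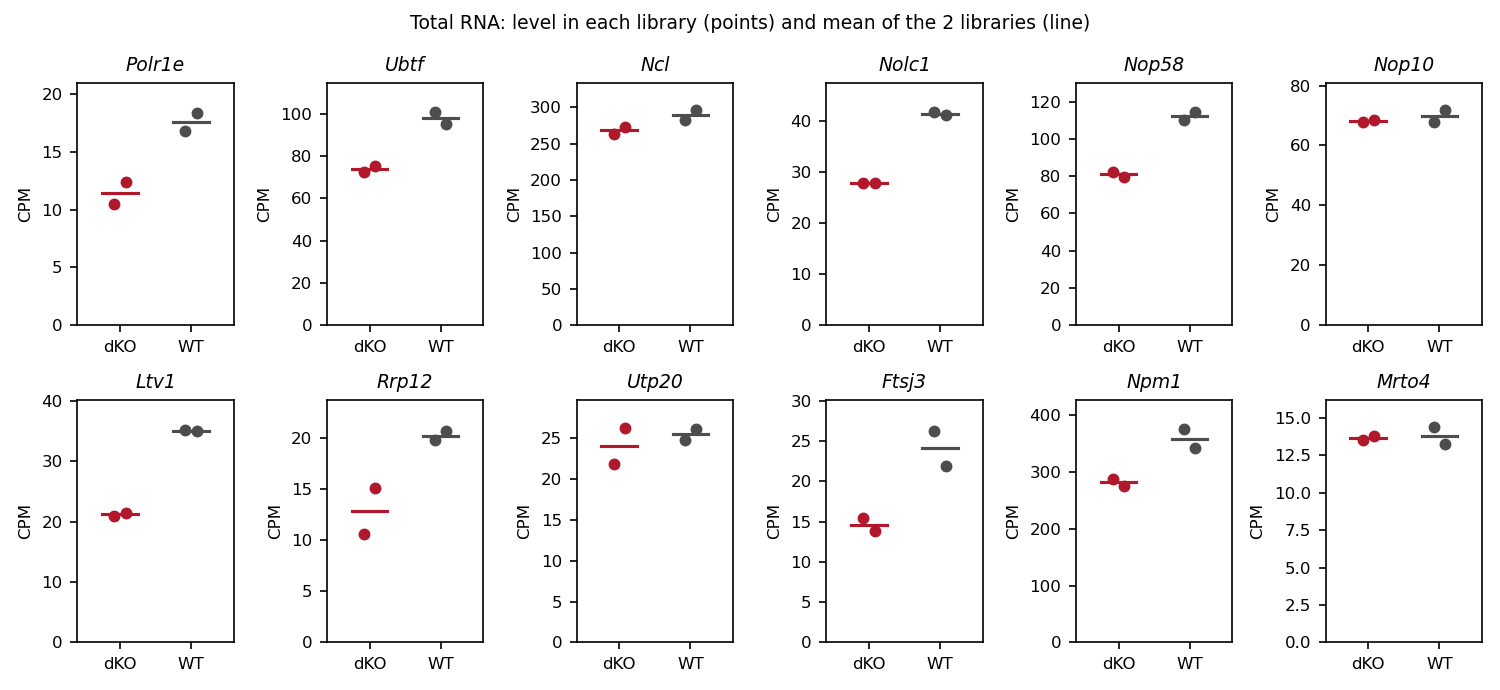
Level in CPM (vertical axis from 0) of 12 genes in each of the 4 total RNA libraries, dKO at left and WT at right; points are libraries and lines are means of 2. Ltv1, Nolc1 and Nop58 show genotypes well apart, and Nop10, Utp20 and Mrto4 show overlapping libraries.

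Other genes of the pathway were lower in dKO as well, in a list also chosen with earlier results of these data known. Over all 14594 genes tested, 16.0% fell and 14.7% rose. Of 127 further ribosome biogenesis symbols present in total RNA, all tested, 69 fell and none rose by edgeR, with 1 higher at an unadjusted p under 0.05 and DESeq2 calling 46 lower and 0 higher, with a median log2 fold change of -0.30. By role, 32 of 51 large-subunit genes fell, 21 of 39 small-subunit genes, 9 of 13 nuclear exosome genes, which trim rRNA ends, 6 of 11 genes of small nucleolar particles and 1 of 13 genes of Pol I. The largest decreases among them were those of Ruvbl1, an ATPase of particle assembly (-0.93 ± 0.22), the helicase gene Ddx27 (-0.77 ± 0.14) and the processome gene Tbl3 (-0.70 ± 0.11). The smallest that still passed were Ddx50 (-0.17 ± 0.07), Senp3 (-0.18 ± 0.07) and Gnl3l (-0.18 ± 0.07). Median log2 fold changes of the Pol I genes were thus near 0 in both lists, -0.12 and -0.04, while those of the other roles ran from -0.42 to -0.31.

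**Figure D3:**
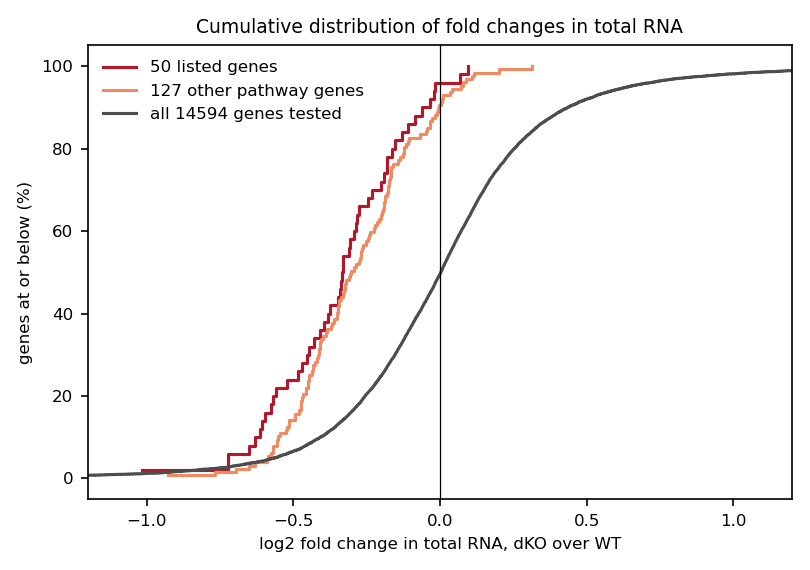
Cumulative share of genes (vertical axis, percent) at or below a given log2 fold change in total RNA (horizontal axis, dKO over WT, drawn from -1.2 to 1.2). The curves of the 50 listed genes and the 127 other pathway genes lie left of the curve of all 14594 genes tested except at its lowest end, with medians of -0.33, -0.30 and 0.00.

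The product of Pol I was read as well. Rn45s, the row for the 45S rRNA precursor, had 16630 and 15661 counts in dKO and 30778 and 30251 counts in WT total RNA (-0.94 ± 0.02), 1034 ± 34.8 CPM in dKO and 1981 ± 29.3 CPM in WT. In polysomal RNA it went the other way, with 356079 and 236798 counts in dKO and 17852 and 16795 counts in WT (6.13 ± 0.42). Precursor and mature rRNA cannot be told apart in this row, and how rRNA was removed from the libraries is not stated in the sources.

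The promoters and gene bodies were examined for features that the list did not use. CACGTG, the E-box bound by Myc and Max, reads the same on both strands. It was found in the window from 250 bases before to 50 after the start in 9 of 45 genes with a RefSeq window (20%, GRCm38.p6). The share was 15.5% (16 of 103) in the other pathway genes with a window. It was 11.4% in the 10934 genes tested in total RNA that had a window, and 8.09% in all genes of the promoter table. Fbl, Rrp12, Npm1, Bop1 and Gnl2 had no entry. Of the 9 genes with the motif 7 fell, with a median log2 fold change of -0.38 over the 9. Of 36 genes without it 23 fell, with a median of -0.32. The 30 bases around the motif, or 25 where the window ended, are printed for the 7 genes that fell because they show the shared letters and their place, CACGTG in capitals, each read along the gene's own strand.
Ltv1 (chr10:13193092-13193121, minus strand, motif 28 bases after the start): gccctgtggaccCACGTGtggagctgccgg
Nop2 (chr6:125131811-125131840, plus strand, 60 bases before the start): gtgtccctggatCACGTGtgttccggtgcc
Pes1 (chr11:3963965-3963994, plus strand, 2 bases after the start): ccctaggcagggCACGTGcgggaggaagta
Pno1 (chr11:17211540-17211564, minus strand, 37 bases after the start): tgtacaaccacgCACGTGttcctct
Rrn3 (chr16:13780639-13780668, plus strand, 48 bases before the start): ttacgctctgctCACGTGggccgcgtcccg
Utp18 (chr11:93885769-93885798, minus strand, 20 bases before the start): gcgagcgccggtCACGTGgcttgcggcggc
Wdr43 (chr17:71616220-71616249, plus strand, 17 bases after the start): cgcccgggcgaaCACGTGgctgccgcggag
Rrn3 holds a further copy 215 bases before its start. Tsr1 and Utp20 hold the motif 24 and 37 bases after the start and were not called in total RNA (-0.18 and -0.09). The letters alone do not show that a factor binds there.

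Several of the genes also carry small nucleolar RNA genes inside them. GENCODE (GRCm38) places 21 such genes on the same strand within 7 of the 50, namely Ncl, Nop56, Nop58, Dkc1, Wdr43, Tsr1 and Gnl3. Of these 7 hosts 6 fell in total RNA, all but Tsr1 (-0.18 ± 0.13). Over all 50 genes 33 fell, and over all genes tested 16.0%. The 6 that fell are also the 6 that the polysomal table lists, and all 6 were lower there. That held for 18 of the 23 listed genes and 52.5% of all genes tested there. With an adjustment for GC content, however, Ncl, Nop58 and Wdr43 had estimates above 0 on polysomes (0.68, 0.11 and 0.060). A gene on the opposite strand overlaps 20 of the 50, and the strand setting of the counting is not given in the sources used here.

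In polysomal RNA 18 of the 23 listed genes were lower in dKO and 5 were higher, 3 of these from the Pol I group. After an adjustment for GC content, Polr1d (0.64) stayed above 0, while Polr1c (-0.14), Ubtf (-0.14), Rrp9 (-0.29) and Noc2l (-0.32) fell below it. Of 52 other pathway genes tested there, 36 were lower and 16 higher. By role, 8 of 24 large-subunit, 2 of 13 small-subunit, 2 of 4 particle, 2 of 7 exosome and 2 of 4 Pol I genes were higher. The polysomal table is not a full transcriptome. When genes averaging 100 counts or more were ordered by the log2 ratio of their summed counts, 2927 lay below -2.04, 2514 lay above -1.71 and 0 lay between. The table thus holds genes that differ between genotypes, and 99.7% of the 5777 genes tested passed, 52.5% lower and 47.2% higher. A call on a listed gene therefore says little by itself, and the 18 lower and 5 higher of 23 are read against those shares. The table held 46.0% of the 50 genes and 39.3% of the genes tested in total RNA. The median log2 fold change of the 23 was -0.73, while that of all 5777 genes was -0.35. The summed marker levels on polysomes were 1331 to 1615 CPM in dKO and 615 to 619 CPM in WT for 8 mesenchyme and somite genes, and 4885 to 4919 CPM in dKO and 8669 to 8797 CPM in WT for 5 erythroid genes, all 5 of them lower. Of the 8 mesenchyme and somite genes 6 were higher, and Prrx1 (-1.63) and Lum (-1.82) were lower. For 9 neural progenitor and neuron genes the sums were 8072 to 8307 CPM in dKO and 7447 to 7463 CPM in WT, with 4 genes lower, among them Dcx (-1.13) and Elavl4 (-1.38), and 4 higher, among them Nes (1.08). They were 84.1 to 90.6 CPM in dKO and 69.4 to 73.8 CPM in WT for 3 endothelial genes, 1 lower and 2 higher, and 27.4 to 28.8 CPM in dKO and 21.2 to 22.7 CPM in WT for 2 macrophage genes, 1 lower and 1 higher. The part of these markers in the values of the 23 genes was not tested. In each of the 23 genes both dKO libraries were on the same side of both WT libraries, as in 52.8% (below) and 47.2% (above) of all genes tested.

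Nop10, which was not called in total RNA, had the lowest polysomal value. It had 77 and 113 counts in dKO and 1844 and 2044 counts in WT, or 22.4 ± 0.281 CPM in dKO and 121 ± 5.84 CPM in WT, 5.41-fold lower (-2.43 ± 0.12, adjusted p = 8.60e-05). Pno1 had 143 and 207 counts in dKO and 2230 and 2274 counts in WT (-1.77 ± 0.10), and Npm1 had 526 and 868 counts in dKO and 7808 and 8211 in WT (-1.62 ± 0.07). Raw counts differ more than these values because the dKO columns sum to far less.

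Among the large-subunit factors, Wdr12 (-1.59 ± 0.33), Noc3l (-1.52 ± 0.27), Brix1 (-1.24 ± 0.24), Gnl3 (-1.10 ± 0.13) and Rrp1b (-0.50 ± 0.11) were lower. The dKO replicates of Wdr12 were far apart, at 8.53 and 20.1 CPM, against 42.3 and 47.6 CPM in WT. Of the particle proteins, Dkc1 was at -1.19 ± 0.11, Nop58 at -1.03 ± 0.09 and Nop56 at -0.48 ± 0.15. The small-subunit genes Wdr75 (-0.86 ± 0.14), Wdr43 (-0.76 ± 0.10), Utp20 (-0.69 ± 0.21), Bysl (-0.61 ± 0.12) and Utp18 (-0.48 ± 0.12) were lower as well, so all 6 listed small-subunit genes were lower. Rrn3 was at -0.73 ± 0.15 and Ncl at -0.30 ± 0.06.

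Polr1d had the highest value of the 23, with 628 and 960 counts in dKO and 1477 and 1562 counts in WT, which is 185 and 189 CPM in dKO and 93.8 and 95.8 CPM in WT (0.98 ± 0.08, adjusted p = 1.92e-04). Rrp9 had 143 and 229 counts in dKO and 389 and 414 in WT (0.80 ± 0.15). Ubtf had 749 and 1012 counts in dKO and 2260 and 2377 in WT (0.53 ± 0.09). The last pair, Noc2l (0.50 ± 0.10) and Polr1c (0.49 ± 0.10), had smaller differences. Without WT replicate 1, Noc2l (0.44, adjusted p = 0.0873), Rrp9 (0.78, adjusted p = 0.0523), Ncl (-0.26, adjusted p = 0.103) and Utp20 (-0.62, adjusted p = 0.105) were not called. Nop56, Rrp1b and Utp18 were called neither without WT replicate 1 (-0.52, -0.51 and -0.51, with adjusted p = 0.0723, 0.0844 and 0.0990) nor without WT replicate 2 (-0.44, -0.50 and -0.44, with adjusted p = 0.125, 0.0915 and 0.150). RLE scaling raised the median of all genes to -0.11, and ended the calls of Ncl (-0.06), Nop56 (-0.24), Rrp1b (-0.26), Utp18 (-0.24) and Utp20 (-0.46).

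Transcript GC content moved with the polysomal values. Over 5572 genes with a GC value the Spearman correlation of log2 fold change with GC content was 0.764, over the 23 genes it was 0.668, and in total RNA it was -0.140 over the 50. These are correlations across genes, which share libraries and are not replicates. The 5 genes that were higher had a GC content from 51.5% (Polr1d) to 59.9% (Rrp9), with a median of 54.1%. The 18 that were lower ran from 40.4% (Wdr12) to 53.9% (Bysl), with a median of 44.0%. After an adjustment for GC content, 8 of the 23 were called lower and 3 higher. Nop10 (-1.92), Bysl (-1.26), Rrp1b (-1.01), Pno1 (-0.77), Npm1 (-0.60), Nop56 (-0.59) and Gnl3 (-0.55) were then still lower and Polr1d (0.64) still higher. Noc2l (-0.32), Ncl (0.68) and Utp18 (0.61) were called with the opposite sign, and Polr1c (-0.14), Ubtf (-0.14) and Rrp9 (-0.29) turned below 0 without a call.

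**Figure D4:**
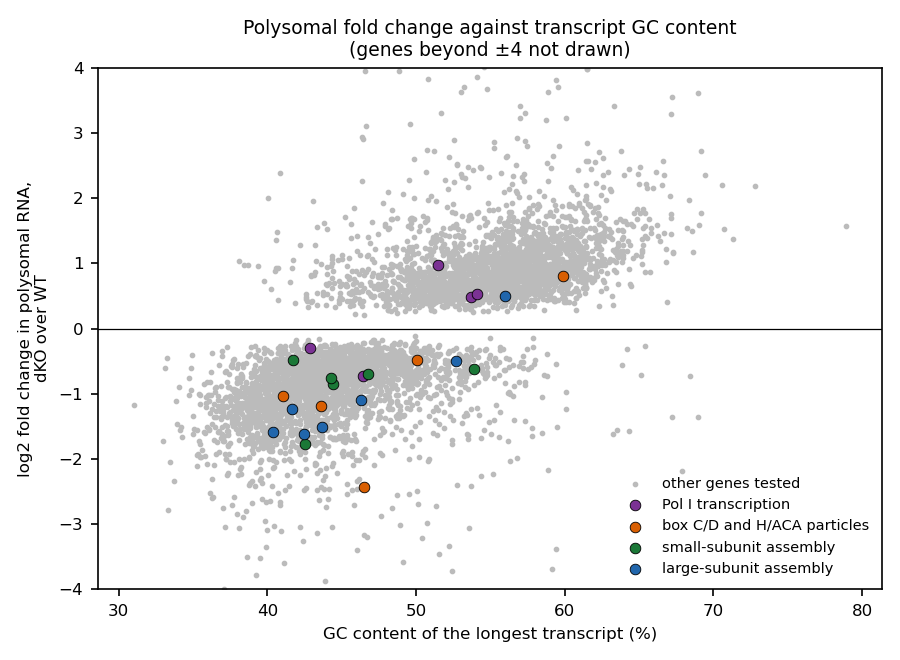
Log2 fold change in polysomal RNA (vertical axis, dKO over WT) against GC content of the longest transcript (horizontal axis, percent) for the genes tested that lie within the axis limits, with the 23 listed genes coloured by role. The 5 of the 23 genes above 0 have a GC content from 51.5% to 59.9% and the 18 below 0 one from 40.4% to 53.9%, and the horizontal gap around 0 is the stretch without listed genes.

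The interaction compared the genotype difference in polysomal RNA with that in total RNA for each gene, polysomal minus total. It was negative and called in 13 of the 23 genes and positive and called in 5, against 45.8% and 43.7% of 5768 genes tested. The median was -0.52, and -0.13 over all genes tested. All of these genes are rows of the polysomal table, which holds genes that differ between genotypes on polysomes. A call of the interaction therefore says little by itself. Nop10 (-2.36 ± 0.13), Pno1 (-1.28 ± 0.11) and Npm1 (-1.23 ± 0.09) had the lowest values, so these transcripts were lower on polysomes by more than their total levels were. The highest were Rrp9 (1.23 ± 0.21), Noc2l (1.17 ± 0.14) and Ubtf (0.98 ± 0.10), the 3 genes whose estimates had opposite signs, lower in dKO total RNA and higher in dKO polysomal RNA. After the adjustment for GC content the interaction was 0.13 for Rrp9 (adjusted p = 0.661) and 0.33 for Noc2l (adjusted p = 0.0764), neither called. That of Ubtf was 0.28 (adjusted p = 0.0336) and still called. The polysomal estimates of Rrp9, Noc2l and Ubtf were then -0.29, -0.32 and -0.14, so their signs were no longer opposite to those in total RNA. Without that adjustment the interactions of Polr1d (0.92 ± 0.11) and Polr1c (0.47 ± 0.12) were also positive.

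The interaction did not pass for Bysl (-0.02 ± 0.17), Utp18 (-0.06 ± 0.14), Nop56 (-0.11 ± 0.16), Rrp1b (-0.15 ± 0.13) and Ncl (-0.15 ± 0.08). Ncl was called without dKO polysomal replicate 2 (-0.18, adjusted p = 0.0128). Utp20 (-0.56 ± 0.24) was called narrowly (adjusted p = 0.0481), and 6 of the 8 libraries ended the call when left out: dKO total replicate 2 (-0.43), WT total replicates 1 (-0.53) and 2 (-0.61), dKO polysomal replicate 1 (-0.33), and WT polysomal replicates 1 (-0.48) and 2 (-0.65). After the GC adjustment the interaction was called lower in 5 genes and higher in 5. Nop10 (-1.94, adjusted p = 7.41e-07), Pno1 (-0.34, adjusted p = 0.0433) and Npm1 (-0.28, adjusted p = 0.0158) were still called lower, while Polr1d (0.55, adjusted p = 0.00186) and Ubtf (0.28, adjusted p = 0.0336) were still called higher. Bysl and Rrp1b (-0.69 each) made up the 5 that were lower. Nop58 (0.57, adjusted p = 0.00131) was then called with the opposite sign, and Ncl (0.75) and Utp18 (0.97), not called before, were called higher.

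**Figure D5:**
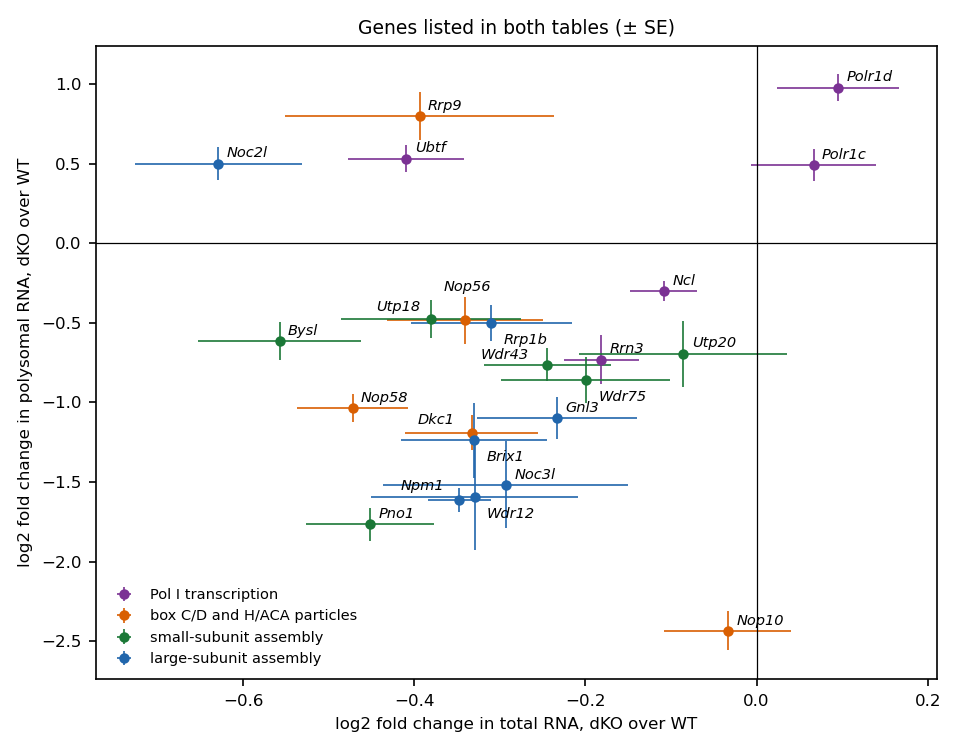
Log2 fold change in polysomal RNA (vertical axis) against that in total RNA (horizontal axis), both dKO over WT, for the 23 genes in both tables, coloured by role; bars are ± SE. Nop10 lies lowest at -2.43 with a total RNA value of -0.03, and Rrp9, Ubtf and Noc2l lie above 0 in polysomal and below 0 in total RNA. Values drawn are not adjusted for GC content. With that adjustment the polysomal values of Rrp9 (-0.29), Ubtf (-0.14) and Noc2l (-0.32) were below 0.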

How the data were processed

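RNA was isolated with Trizol and made into strand-specific libraries with a NEBNext Ultra Directional kit, per the labels' protocols. Per the submitters' processing notes, the tools were FastQC, TopHat and HTSeq, and 3 build names occur (mm9, mm10, GRCm38) with no role. The authors deposited 2 tables of raw read counts per gene symbol, with 1 column per library. Not given in the sources used here are the annotation, the strand setting, the handling of multi-mapped reads, and how polysomes were collected and polysomal rows chosen.

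Within R 4.3.3, counts passing filterByExpr were scaled by TMM and tested by edgeR 4.0.16 with its quasi-likelihood test, over all genes of a table, with Benjamini-Hochberg adjustment and a threshold of 0.05. Genotype comparisons used the 4 libraries of a fraction, and the interaction used all 8 with 5790 genes in both tables. Each standard error is the size of the log2 fold change over the root of its F statistic. CPM use TMM-scaled library sizes. Each fit was also run on simulated counts in which a small share of genes was changed and the rest were not. The polysomal table, where 99.7% of the genes tested passed, is unlike that setting. The simulation therefore does not test the scaling of the polysomal and interaction fits. Levels per kilobase, gene overlaps and GC content (longest transcript) come from GENCODE M21 (GRCm38). It matched 95.6% of total RNA and 96.5% of polysomal symbols. Promoter windows, their starts and the printed motif positions come from RefSeq, whose starts can differ from those of GENCODE. DESeq2 1.42.0 was run as an alternative, as were upper-quartile and RLE scaling, the replicate number as a block, no low-count filter, only genes averaging 5 CPM or more, offsets for GC content or length (loess, span 0.5), each library left out, all 8 libraries in 1 fit, and a polysomal scaling that puts the empty stretch at 0. The members, lists and alternatives were chosen with earlier results of these data known. Ncl and Ddx21 were placed with Pol I, and Npm1 with the large subunit. Counts per library are printed, in each role group, for the 3 largest and 2 smallest total RNA changes and the highest level, and for the 3 lowest and 3 highest polysomal values; a few others were added after their values were seen.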

Additional observations from a re-analysis of the deposited data

Results flagged for a closer look

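Of the 23 genes in both tables, 18 had a genotype difference that was not the same in polysomal as in total RNA by the interaction term of edgeR over all 8 libraries (adjusted p under 0.05), as did 89.5% of all 5768 genes tested. The polysomal table holds genes that differ between genotypes on polysomes, so such a call says little by itself. The interaction, polysomal minus total on the log2 scale, was -2.36 for Nop10, -1.28 for Pno1, -1.23 for Npm1, -1.21 for Wdr12 and -1.17 for Noc3l. It was -0.85 for Brix1, -0.83 for Gnl3, -0.82 for Dkc1, -0.63 for Wdr75, -0.56 for Utp20, -0.52 for Nop58, -0.52 for Rrn3 and -0.48 for Wdr43. It was 0.47 for Polr1c, 0.92 for Polr1d, 0.98 for Ubtf, 1.17 for Noc2l and 1.23 for Rrp9. The rRNA precursor row Rn45s had an interaction of 7.10, the result of lower counts in dKO total RNA and higher counts in dKO polysomal RNA. With the offset for GC content, 5 of the 18 kept both call and sign, namely Nop10, Pno1, Npm1, Polr1d and Ubtf, 8 lost the call and 5 changed sign. Those that lost it were then at -0.37 (Gnl3), -0.37 (Noc3l), -0.17 (Utp20), -0.073 (Rrn3), -0.049 (Wdr12), -0.0033 (Dkc1), 0.13 (Rrp9) and 0.33 (Noc2l). Those that changed sign were Polr1c, Nop58, Wdr43, Wdr75 and Brix1. With the same offset the polysomal estimate of Ubtf itself was -0.14 and not called. Utp20 was also not called with RLE scaling (-0.44), by DESeq2 (-0.45), among genes averaging 5 CPM or more (-0.54) or with the length offset (-0.33).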

How the results depend on the processing

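In the fits reported above, 16.0% of all genes tested were lower and 14.7% higher in total RNA. The shares were 52.5% and 47.2% in polysomal RNA, and 45.8% and 43.7% for the interaction. Shares under each alternative are not printed, so the counts below show only how far calls depended on the setting. In total RNA, 33 of the 50 genes were lower with RLE scaling, 29 with upper-quartile scaling, 26 by DESeq2, 31 without the filter on low counts and 32 with an offset for GC content or length, and none was higher under any of these. Leaving out 1 library gave 23 to 27 lower, and 18 of the 33 kept their call each time. Of the 23 genes in both tables, 17 were lower in the reported total RNA fit, as were 20.9% of all genes tested that the polysomal table lists. With all 8 libraries in 1 fit, limited to genes in both tables, 11 of 23 were called lower, and 695 of all genes lower and 588 higher. Rrn3, Ncl, Rrp9, Wdr12, Gnl3 and Brix1 lost their call there. DESeq2 called 1545 of all genes lower and 1397 higher. In polysomal RNA the median of the 23 genes was -0.49 with RLE scaling, -0.48 by DESeq2, -0.65 with the length offset and -0.80 with the empty stretch at 0. It was -0.73 in the fit reported above, against -0.35 over all genes tested. RLE scaling raised the median of all genes as well, as given with the polysomal results. Of the 23 genes, RLE scaling called 13 lower and DESeq2 12. With the GC offset the median was -0.29, with 8 lower and 3 higher, and 1271 of all genes lower and 1529 higher. Its reversed estimates were -0.14 for Polr1c, -0.14 for Ubtf, 0.68 for Ncl, 0.11 for Nop58, -0.29 for Rrp9, 0.060 for Wdr43, 0.61 for Utp18 and -0.32 for Noc2l. Leaving out 1 library gave 13 to 18 lower and 3 to 5 higher. The interaction median was -0.39 with RLE scaling, -0.38 by DESeq2, -0.33 with the length offset and -0.62 with the empty stretch at 0. With the GC offset it was -0.049, with 5 lower, and 1171 of all genes lower and 1330 higher. Reversed there were Polr1c (-0.19), Ncl (0.75), Nop58 (0.57), Wdr43 (0.26), Wdr75 (0.10), Utp18 (0.97) and Brix1 (0.17). The causes were not tested. The looser motif CANNTG was in 66.7% of the 45 promoters and in 67.4% of promoters of genes tested.

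Replicate differences of dKO and WT correlated at 0.00 in total and 0.02 in polysomal RNA, so the replicate numbers were not shown to pair the libraries. With the replicate number as a block, 32 genes were lower in total RNA (Nob1 was lost), 18 lower and 5 higher in polysomal RNA, and 13 lower and 5 higher for the interaction.

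With 2 libraries a group, genes with few reads had wide errors. Fbl, at 16 to 36 counts a library, was not called under any alternative that gave a value, and Ddx18 was called in 5 of 12 alternatives. The polysomal table holds chosen rows, so its depth, its scaling and the genes not listed in it limit what it shows.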
